A study of Rattus with 9 samples.

Results

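Hox genes were read out in dorsal root ganglia of the upper thorax, given as T1 to T4 in the deposited sample sheet, from 9 rats. The members were all rows of the deposited gene tables whose symbol is Hoxa, Hoxb, Hoxc or Hoxd followed by a number only, which gave 27 of 17378 rows. RefSeq lists 39 protein-coding rat Hox genes. The 12 without a row, Hoxa3, Hoxa4, Hoxa5, Hoxa9, Hoxa10, Hoxb1, Hoxb2, Hoxb6, Hoxc6, Hoxc13, Hoxd8 and Hoxd11, were not analysed here.

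The study sequenced poly-A RNA from ganglia of SD (Sprague-Dawley, an outbred strain) rats 8 weeks after surgery. In the MI group (5 rats) a coronary artery was ligated to cause myocardial infarction, and the deposited tables name these rats CHF. The sham group (4 rats) had sham surgery; the rats' age is not stated. Each library is labelled as 1 rat, so p-values measure the spread between rats. Which levels and sides each rat's library held, and in what proportion, is not stated, so differences in that mix cannot be told apart from differences in expression.

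Hox genes encode homeodomain transcription factors and lie in the Hoxa, Hoxb, Hoxc and Hoxd clusters. Genes at the same place in different clusters form a numbered paralogue group. In the embryo, low-numbered groups are switched on from the hindbrain backwards, and higher groups begin progressively nearer the tail. The set a segment expresses therefore marks its level along the body, and neurons, glia and connective tissue cells can all carry it. Hox proteins bind DNA together with TALE homeodomain cofactors of the Pbx, Meis and Pknox families.

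Library totals lay between 5656582 and 6861355 reads, and the expressed Hox rows had between 4 and 242 reads per library, so counting error was a large part of most values. The Hox rows together held 6172 of 56095601 reads. The tissue label was checked against its defining markers: the sensory neuron genes Prph and Tubb3 had mean levels of 612 and 990 RPKM, and the Schwann cell gene Prx 93.2 RPKM. Markers of neighbouring tissue were uneven, some without a read and others present. For sympathetic neurons Phox2a had no read and Dbh 6 reads in all, for motor neurons Mnx1 had no read and Chat 1 read, and for spinal cord cells Olig2 and Slc32a1 had no read. In the same lists Th (sympathetic) stood at 0.636 RPKM, Slc5a7 (motor) at 1.04 RPKM and Gfap (spinal cord astrocytes, among other glia) at 4.97 RPKM. Fibroblast genes were well represented, with Dcn at 606 RPKM. Summed skeletal muscle markers ranged from 3.42 RPKM in MI 5 to 24.5 RPKM in Sham 3, and summed adipocyte markers from 1.47 RPKM in Sham 1 to 11.3 RPKM in MI 5. No gene of any marker list passed the test between MI and sham, which 2 of 11711 tested genes passed. In bulk tissue, fewer cells of a type and less RNA per cell cannot be told apart.

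Among the analysed rows, Hox expression extended from group 1 to group 9 and stopped there. With expressed defined as a mean of at least 1 RPKM (reads per kilobase of gene, scaled to library size), 13 of the 27 rows were expressed, and they included at least 1 gene of groups 1 to 5 and 7 to 9. Of the 9 rows of groups 10 to 13, 7 had no read in any library and the others had 4 reads in all. By cluster, 2 of 6 Hoxa rows, 5 of 7 Hoxb rows, 3 of 7 Hoxc rows and 3 of 7 Hoxd rows were expressed. The row just inside the limit was Hoxd3 at 1.07 RPKM, and the row just outside was Hoxd4 at 0.841 RPKM.

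**Figure D1:**
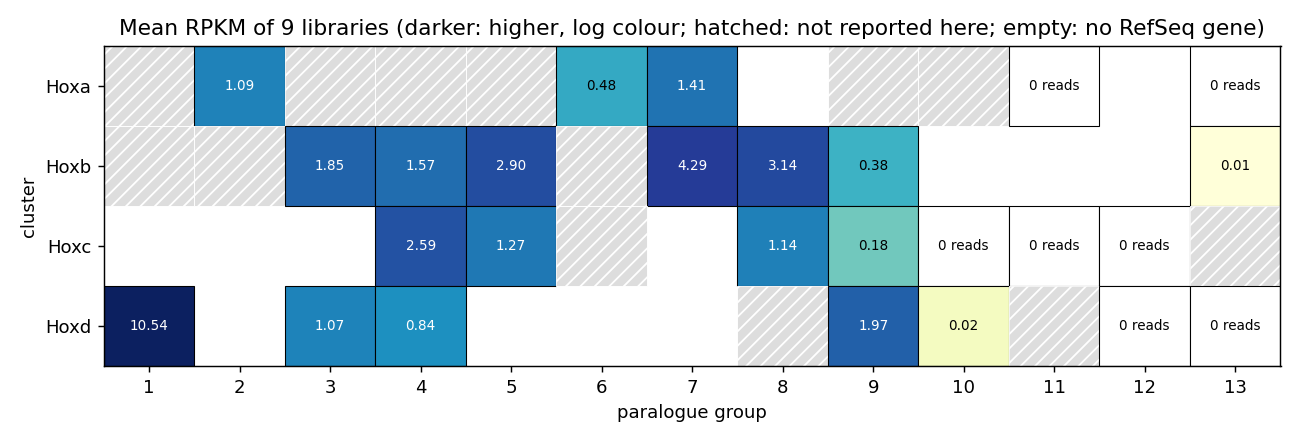
Mean RPKM over the 9 libraries for each Hox row, with paralogue group on the x axis and cluster on the y axis. Hatched cells are genes not reported here and empty cells hold no RefSeq gene; values are highest for Hoxd1 at 10.5 and fall to 0 reads or a few reads from group 10 onwards.

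The summed level was 14.1 ± 1.62 RPKM (SD, n = 9) in the Hoxb cluster and 14.4 ± 1.59 RPKM in the Hoxd cluster. It was 5.18 ± 0.781 RPKM in the Hoxc cluster and 3.09 ± 0.371 RPKM in the Hoxa cluster. These sums, and those of paralogue groups below, leave out the genes with no row. They therefore rank neither whole clusters nor whole paralogue groups, and group 6 rests on 1 row, Hoxa6. Hoxd1 alone, at 10.5 RPKM, put the analysed rows of group 1 above those of every other paralogue group. In the other groups the summed level was 5.70 RPKM in group 7, 5.00 in group 4, 4.28 in group 8 and 4.18 in group 5. It was 2.91 RPKM in group 3, 2.53 in group 9, 1.09 in group 2 and 0.481 in group 6. The Hoxd sum was mostly Hoxd1, while the Hoxb sum was spread over Hoxb3, Hoxb4, Hoxb5, Hoxb7 and Hoxb8.

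Among the 27 analysed Hox rows, Hoxd1 had the highest level in all 9 libraries. In the mouse it is known for the wiring of pain-sensing neurons of these ganglia. It stood at 8.70, 12.7, 10.9 and 11.9 RPKM in Sham 1 to 4 and at 10.8, 10.05, 11.8, 9.84 and 8.07 RPKM in MI 1 to 5. Sham 1 and MI 5 were the low libraries, and the groups overlapped. Its mean of 10.5 ± 1.53 RPKM (SD, n = 9) was 2.46 times that of Hoxb7, the next row, and within single libraries it was 1.62 to 2.96 times the next row. It held 28.6% of the summed RPKM of the analysed Hox rows. Hoxd1 lay above 54.8% of the 10921 rows of any kind with a mean of at least 1 RPKM, while Hoxb7 lay above 26.8% of them. Within the Hoxd cluster, the mean RPKM of Hoxd1 was 9.86 times that of Hoxd3, and Hoxd1 was the higher in 9 of 9 libraries.

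Genes of groups 2 to 5, known for patterning the hindbrain, branchial arches and neck, were expressed at 1 to 3 RPKM with the exception of Hoxd4. Hoxa2, which patterns the branchial arch skeleton, stood at 1.28, 0.942, 1.02 and 1.03 RPKM in Sham 1 to 4 and at 1.31, 1.32, 1.07, 0.612 and 1.22 RPKM in MI 1 to 5. Its lowest library was MI 4. Hoxb3, a hindbrain and neck gene, stood at 2.12, 2.32, 1.33 and 1.39 RPKM in Sham 1 to 4 and at 1.83, 1.62, 2.14, 1.67 and 2.20 RPKM in MI 1 to 5. Hoxd3, needed for the first neck vertebra in the mouse, stood at 1.06, 1.29, 0.833 and 1.33 RPKM in Sham 1 to 4 and at 0.848, 0.875, 0.976, 0.752 and 1.65 RPKM in MI 1 to 5. The sham values of Hoxb3 covered the whole range of the gene, and Hoxd3 had its highest value of all libraries in MI 5.

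In group 4, whose genes pattern neck vertebrae, Hoxc4 was the highest row. It stood at 2.74, 2.23, 2.13 and 1.99 RPKM in Sham 1 to 4 and at 2.68, 3.06, 2.98, 2.32 and 3.18 RPKM in MI 1 to 5. Hoxb4 stood at 1.51, 2.07, 1.14 and 1.25 RPKM in Sham 1 to 4 and at 1.60, 1.42, 1.66, 1.70 and 1.81 RPKM in MI 1 to 5. Sham 3 was the lowest library for Hoxb4, and Sham 4 for Hoxc4. Hoxd4, tested although below 1 RPKM on average, stood at 0.830, 1.03, 0.566 and 0.992 RPKM in Sham 1 to 4 and at 1.12, 0.594, 0.667, 0.851 and 0.920 RPKM in MI 1 to 5. Its lowest and highest libraries, Sham 3 and MI 1, lay in different groups, and the groups overlapped. RefSeq places Mir10b and an uncharacterised gene within its span.

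Group 5 genes act at the neck and forelimb level, and in the mouse Hoxc5 takes part in forming phrenic motor neurons. Hoxb5 stood at 3.76, 3.14, 2.37 and 2.81 RPKM in Sham 1 to 4 and at 2.35, 2.55, 3.03, 2.22 and 3.88 RPKM in MI 1 to 5. Hoxc5 stood at 1.33, 1.41, 1.12 and 1.33 RPKM in Sham 1 to 4 and at 1.21, 1.47, 1.15, 1.06 and 1.40 RPKM in MI 1 to 5. Hoxb5 was high in Sham 1 and MI 5, whereas Hoxc5 was nearly level across the libraries. Reads of Hoxc4 and Hoxc5 are uncertain because Hoxc6 spans both in RefSeq, and Hoxb5 overlaps the antisense gene Hoxb5os, which had 24 reads in all.

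Trunk genes of groups 6 to 8 included Hoxb7 and Hoxb8, which ranked behind Hoxd1 by mean RPKM. Hoxb7, a gene of trunk vertebrae, stood at 3.35, 5.32, 4.02 and 4.19 RPKM in Sham 1 to 4 and at 4.25, 4.97, 3.99, 3.55 and 4.98 RPKM in MI 1 to 5. It was the second Hox row in 8 of 9 libraries; in Sham 1 Hoxb5 was above it. Hoxa7, its paralogue, stood at 1.06, 1.48, 1.26 and 1.40 RPKM in Sham 1 to 4 and at 1.32, 1.84, 1.49, 1.47 and 1.40 RPKM in MI 1 to 5. Hoxa6, the only analysed row of group 6 and also a trunk gene, was below the limit at 0.481 ± 0.164 RPKM (SD, n = 9), with 5 to 21 reads per library and 118 in all. RefSeq places it within the span of Hoxa3 and of the antisense gene Hoxaas3.

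Hoxb8, which in the mouse acts in dorsal spinal cord neurons and microglia, stood at 3.07, 2.18, 2.65 and 2.76 RPKM in Sham 1 to 4 and at 3.90, 3.20, 3.51, 3.19 and 3.84 RPKM in MI 1 to 5. All MI values lay above all sham values. Hoxc8, known in the mouse for motor neurons that serve the forelimb, stood at 1.48, 0.707, 0.312 and 1.41 RPKM in Sham 1 to 4 and at 1.19, 1.39, 0.697, 1.96 and 1.09 RPKM in MI 1 to 5. Its highest library, MI 4, and its lowest, Sham 3, differed 6.32-fold in counts per library total after TMM scaling (CPM), and the groups overlapped.

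Group 9 was the highest-numbered group with an expressed gene, and its 3 analysed paralogues were at unequal levels. Hoxd9, a gene of the lower trunk and limbs, stood at 1.88, 1.64, 1.58 and 1.69 RPKM in Sham 1 to 4 and at 2.84, 1.60, 2.298, 1.76 and 2.45 RPKM in MI 1 to 5. Its paralogues were above 0 but low. Hoxb9, which shapes the rib cage in the mouse, had 4, 7, 2 and 2 reads in Sham 1 to 4 and 9, 3, 3, 2 and 1 in MI 1 to 5. Hoxc9, the thoracic selector of motor neurons in the mouse spinal cord, had 1, 0, 1 and 2 reads in Sham 1 to 4 and 4, 2, 2, 1 and 2 in MI 1 to 5. Hoxd9 was 5.14 times as high as Hoxb9 and 11.2 times as high as Hoxc9 by mean RPKM, and it was the higher in 9 of 9 libraries each time.

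The step down at the end of the expressed range differed by cluster. In the Hoxb cluster it fell between neighbours Hoxb8 and Hoxb9, with an 8.20-fold ratio of mean RPKM. In the Hoxc cluster the mean RPKM of Hoxc8 was 6.46 times that of Hoxc9. The order was the same in 9 of 9 libraries for both steps. In the Hoxd cluster the step came later, between Hoxd9 with 333 reads and Hoxd10 with 3 reads, 1 each in Sham 2, Sham 4 and MI 3. Hoxd10 and Hoxc10 are known for motor neurons of the lumbar, hindlimb level. Hoxc10, Hoxc11, Hoxc12, Hoxd12, Hoxd13, Hoxa11 and Hoxa13 had no read, which allows up to 0.0535 CPM over the 9 libraries together (3 reads, counting error only). These genes act in the lumbosacral trunk, limbs or tail end. Hoxb13, a gene of the tail end and prostate, had 1 read, in MI 4.

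**Figure D2:**
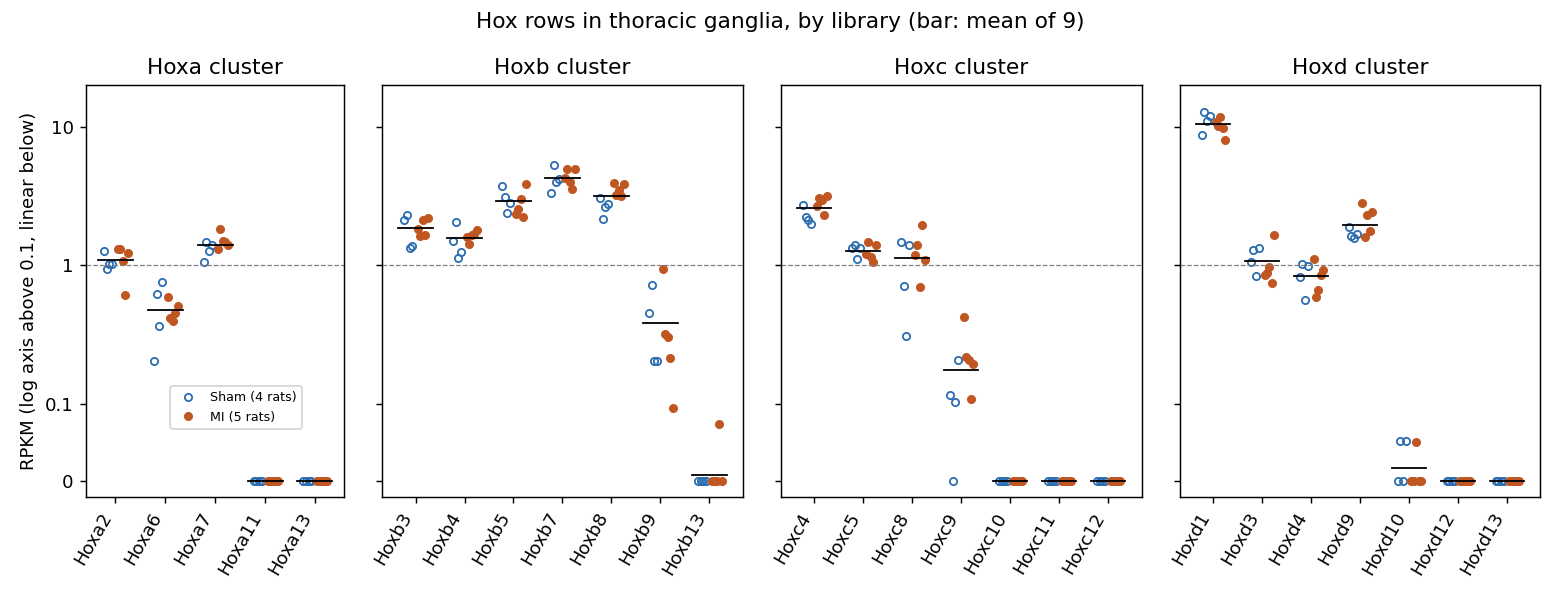
RPKM of the reported Hox rows (y axis, log above 0.1 and linear below) in every library, by cluster; open circles are sham rats, filled circles MI rats, bars the mean of 9 and the dashed line 1 RPKM. The rows from group 10 onwards sit at or near 0 in all libraries, and only Hoxb8 separates the groups among the expressed rows.

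Most neighbours in the order of levels had overlapping ranges. Among the 13 expressed rows ranked by mean RPKM, only the first step, Hoxd1 over Hoxb7, had ranges over the 9 libraries that did not overlap. Hoxb7 was above Hoxb8 in 9 of 9 libraries although their ranges overlapped. Hoxc4 over Hoxd9, Hoxb3 over Hoxb4 and Hoxa7 over Hoxc5 were in order in 8 of 9 libraries each, with overlapping ranges. The other steps were in order in 4 to 6 libraries. At the lower end, Hoxc8 was above Hoxa2 in 4 of 9 libraries and Hoxa2 above Hoxd3 in 5 of 9.

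The libraries with the lowest Hoxd1 had the highest sums of the other low-numbered genes, but the reverse did not hold. The summed RPKM of groups 1 to 5 without Hoxd1 was 14.8, 14.6, 10.6 and 12.2 in Sham 1 to 4 and 13.1, 13.03, 13.7, 11.2 and 16.4 in MI 1 to 5. Sham 1 and MI 5, which had the lowest Hoxd1, had the highest of these sums. Sham 2, with the highest Hoxd1, had a sum close to that of Sham 1, and the lowest sum was in Sham 3, where Hoxd1 was 10.9 RPKM. The same 2 libraries had the lowest summed sensory neuron markers (6 genes), 1880 and 1865 RPKM against 1887 to 2038 RPKM in the others. They also had the highest summed Schwann cell markers (4 genes), 3741 and 4015 RPKM against 2467 to 3457 RPKM, and the highest summed satellite glia markers (4 genes), 211 and 215 RPKM against 164 to 193 RPKM. The part of cell makeup in the Hox values was not tested.

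For groups 6 to 9 the summed RPKM was 11.6, 12.7, 10.5 and 12.6 in Sham 1 to 4 and 15.5, 13.97, 12.9, 12.7 and 14.6 in MI 1 to 5. The highest sham and the lowest MI library were nearly level. As a share of the summed Hox RPKM, groups 6 to 9 held 33.0% ± 1.11 (SD, n = 4) in sham and 37.1% ± 2.11 (SD, n = 5) in MI, and Sham 4 at 34.4% was above MI 3 at 33.6%. With Hoxd1 left out the shares were 47.8% ± 3.14 (SD, n = 4) and 50.9% ± 3.03 (SD, n = 5). These sums were formed after their values were seen and carry no test.

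**Figure D3:**
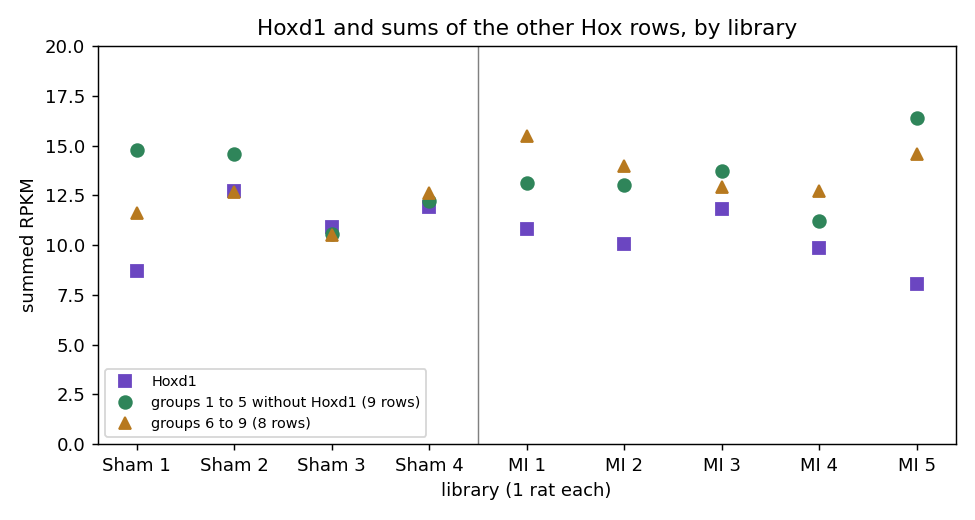
Summed RPKM (y axis) of Hoxd1, of the other rows of groups 1 to 5 and of groups 6 to 9 in each library (x axis, 1 rat each). Sham 1 and MI 5 have the lowest Hoxd1, 8.70 and 8.07, and the highest sums of the other low-numbered rows, 14.8 and 16.4.

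For most tested Hox rows the spread across libraries was close to counting error, which at these read numbers does not show that rats varied little. Over the 15 rows with enough reads for testing, the coefficient of variation (CV) of CPM across the 9 libraries had a median of 19.7%, and counting error alone gave a median of 16.7%. Over all 11711 tested genes, which had more reads, these medians were 9.65% and 7.14%. In 3 of the 15 rows, Hoxc5, Hoxa7 and Hoxb4, the CV was below its counting error. The same held for 19.99% of all tested genes, so the Hox share did not stand out. Hoxc5 had the lowest CV of the 15 rows, at 11.02%. In 2 rows the CV was more than 1.5 times the counting error; the share of all tested genes past this limit was not computed. Hoxd1 had a CV of 14.4% against 7.10%, and Hoxc8 had 44.2% against 26.5%. Hoxc8 had 4 to 24 reads per library, and its biological coefficient of variation (BCV) estimated by edgeR was 29.8%. The BCV is the part of the spread beyond counting error. Its median was 13.4% for the 15 rows and 7.66% over all tested genes.

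**Figure D4:**
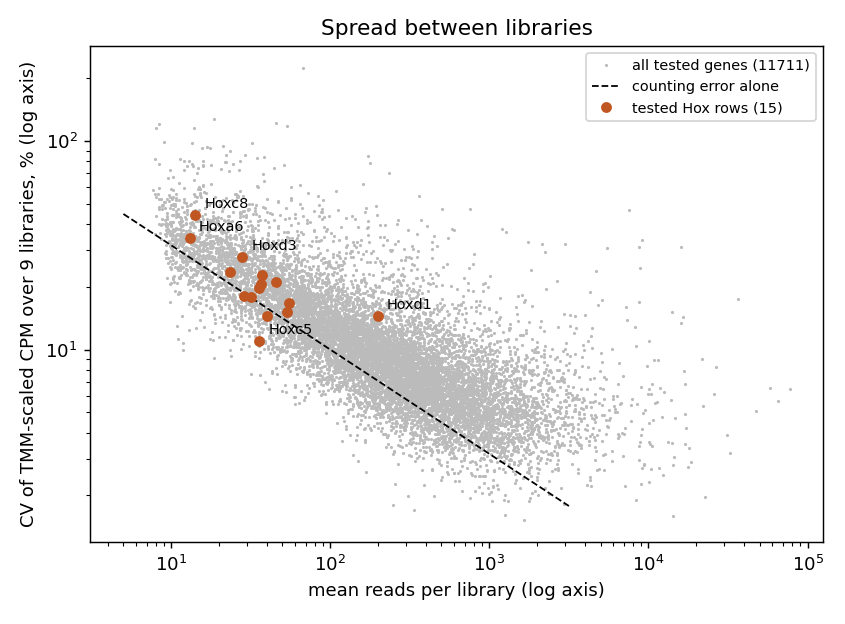
CV of CPM over the 9 libraries (y axis, log) against mean reads per library (x axis, log) for all 11711 tested genes (grey) and the 15 tested Hox rows (orange), with the dashed line giving counting error alone. Most Hox rows lie near the line; Hoxd1 at 14.4% and Hoxc8 at 44.2% lie above it.

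No library was extreme for all Hox rows. Sham 3 was lowest of the 9 for 5 of the 15 tested rows (Hoxb3, Hoxb4, Hoxc8, Hoxd4 and Hoxd9) and MI 4 for 4 (Hoxa2, Hoxb5, Hoxc5 and Hoxd3). Sham 2 and MI 1 were highest for 4 rows each. The summed level of all Hox rows ranged only from 32.0 RPKM in Sham 3 to 39.99 RPKM in Sham 2, a CV of 7.39%.

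No Hox gene differed between MI and sham by the test across all genes. The likelihood-ratio test of edgeR, which the submitters also used, called 0 of 15 tested Hox rows in either direction at an adjusted p of 0.05, and the quasi-likelihood test also called 0. Over all tested genes these tests called 0.0171% and 0%. At an unadjusted p under 0.05 both tests had 2 Hox rows, Hoxb8 and Hoxc4, where the background was 4.64% of all genes for the likelihood-ratio test and 5.14% for the quasi-likelihood test. Of the 15, 9 had a log2 fold change above 0 and 6 below, against 50.8% of all tested genes above 0. Their median log2 fold change was 0.06, against 0.00 over all tested genes, and their median absolute value 0.14 against 0.07. The Hox rows also had fewer reads, with a median counting error of 16.7% against 7.14%. Its part in the larger absolute values was not tested.

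Hoxb8 had the smallest p of the Hox rows with a higher level in MI. It stood at 4.30 ± 0.626 CPM (SD, n = 4) in sham and 5.67 ± 0.547 CPM (SD, n = 5) in MI, a 1.33-fold ratio. The log2 fold change was 0.41 (SE 0.20, 95% interval 0.02 to 0.79, edgeR likelihood-ratio adjusted p = 0.9996, quasi-likelihood adjusted p = 0.920). It was the 1 tested Hox row whose groups did not overlap, MI being the higher. Among all tested genes 1.74% did not overlap, 0.837% with MI higher and 0.905% with MI lower. The 22 to 42 reads behind each library's value limit this comparison. The unadjusted p varied with the method. By DESeq2 it was 0.0957 for Hoxb8 and 0.0882 for Hoxc4, and by limma-voom 0.0313 and 0.0385. By limma on log2(RPKM + 1) it was 0.00578 for Hoxb8 and 0.0314 for Hoxc4. In edgeR fits without 1 library it ranged from 0.0255 to 0.133 for Hoxb8 (0.133 without Sham 2). For Hoxc4 these fits gave 0.0129 to 0.131 (0.131 without Sham 4).

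Hoxc4, Hoxd9 and Hoxc8 had log2 fold changes of similar size and none passed. Hoxc4 stood at 7.79 ± 1.14 CPM (SD, n = 4) in sham and 9.72 ± 1.14 CPM (SD, n = 5) in MI, with a log2 fold change of 0.33 (95% interval 0.01 to 0.64). Hoxd9 stood at 5.11 ± 0.420 CPM (SD, n = 4) and 6.57 ± 1.53 CPM (SD, n = 5), with 0.37 (-0.04 to 0.78). MI 1, MI 3 and MI 5 were above all shams for Hoxd9, while MI 2 and MI 4 lay within the sham range. Hoxc8 had 0.37 with the widest interval, -0.40 to 1.13, and in fits without 1 library it ranged from 0.07 (without Sham 3) to 0.63 (without Sham 1).

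Hoxd3 and Hoxd1 had the most negative values. Hoxd1, the Hox row with the smallest p among those lower in MI, stood at 33.5 ± 5.11 CPM (SD, n = 4) in sham and 30.6 ± 4.22 CPM (SD, n = 5) in MI. Its log2 fold change was -0.14 (SE 0.13, 95% interval -0.39 to 0.11, edgeR likelihood-ratio adjusted p = 0.9996). In fits without 1 library it ranged from -0.23 (without Sham 1) to -0.0626 (without MI 5). For Hoxd3 it was -0.14 (-0.66 to 0.38), and in fits without 1 library it ranged from -0.39 (without MI 5, its high library) to -0.0522 (without MI 4). Hoxb7 stood at 8.47 ± 1.59 CPM (SD, n = 4) in sham and 8.71 ± 1.21 CPM (SD, n = 5) in MI, with a log2 fold change of 0.04, and Hoxb5 at 7.67 ± 1.51 CPM (SD, n = 4) and 7.11 ± 1.71 CPM (SD, n = 5), with -0.10. Together with Hoxa2, Hoxa6, Hoxa7, Hoxb3, Hoxb4, Hoxc5 and Hoxd4 they lay between -0.10 (Hoxb5) and 0.20 (Hoxa7), and each interval held 0. In 14 of 15 rows, all but Hoxc8, the interval stayed within 1 log2 unit of 0. SEs ran from 0.13 (Hoxd1) to 0.39 (Hoxc8), so the size of difference that could be resolved varied by row. Differences within a row's interval were not resolved with these rats.

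**Figure D5:**
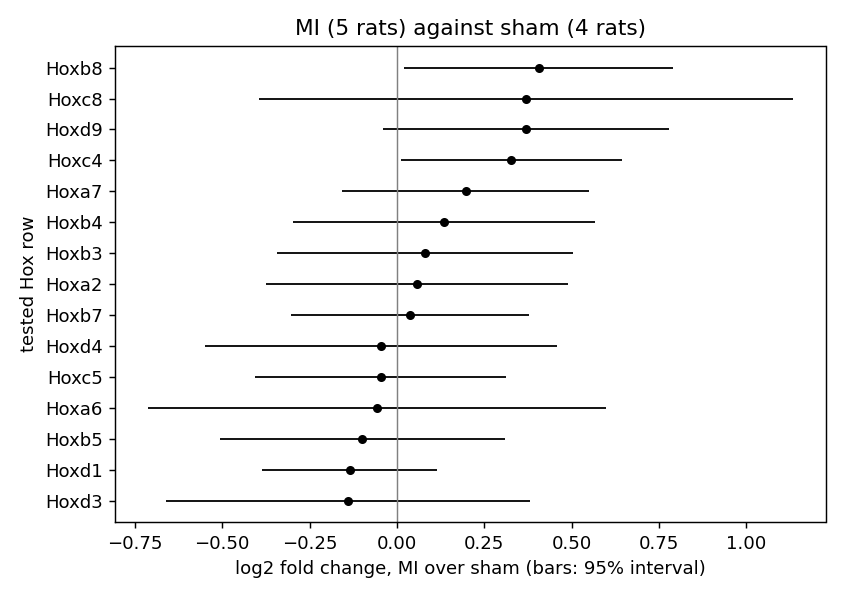
Log2 fold change of MI over sham (x axis) for each tested Hox row (y axis), as points with 95% intervals, from 5 MI and 4 sham rats. Hoxb8 and Hoxc4 have intervals just above 0 before adjustment, and the other 13 intervals hold 0.

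For MI against sham, the authors' deposited table lists 11 of the 27 Hox rows; the rows held here reach a p of 0.712. In the authors' deposited edgeR table none of these 11 passed an adjusted p of 0.05. Hoxc4 had the smallest unadjusted p there, 0.0882, with a fold change of 1.25, and Hoxb8 had 0.0958 with 1.32. The likelihood-ratio fit here gave smaller unadjusted p-values, 0.0418 for Hoxc4 and 0.0367 for Hoxb8. The reason for this difference was not tested. Of the Hox rows in the authors' table, 9 were also tested here, and all 9 had the same sign, from the same libraries. The remaining pair in the authors' deposited table, Hoxc9 with a fold change of 2.01 and Hoxd10 with 0.510, had 15 and 3 reads in all.

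All 9 TALE cofactors had reads. Pbx2 was the highest at 11.9 RPKM and Pknox2 followed at 8.95, then Pbx3 at 7.92, Meis3 at 6.39, Meis2 at 4.81, Pknox1 at 2.62, Pbx4 at 1.61 and Meis1 at 1.41 RPKM. None of the 9 passed the likelihood-ratio test in either direction, which 0.0171% of all tested genes passed. Meis2 had the smallest p, with a log2 fold change of 0.16 (SE 0.14).

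Chromatin regulators that keep Hox genes silent or active were also tested without a call. Of 15 Polycomb genes with a row, 0 were called higher and 0 lower by the likelihood-ratio test. Over all tested genes that test called 0.0171%, so lists of this size could hardly hold a call. The median log2 fold change of the 15 was 0.02. Phc2, a subunit of the Polycomb complex that compacts chromatin, had the smallest p, with -0.09 (SE 0.07). Ezh1, a histone methyltransferase of the Polycomb machinery, stood at 23.1 RPKM and its relative Ezh2 at 1.70 RPKM. Of 5 Trithorax and demethylase genes, 0 passed, and Wdr5, a subunit of histone methyltransferase complexes, had -0.13 (SE 0.09).

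Retinoic acid, made from vitamin A, sets Hox expression in the embryo. Of 15 tested genes of its synthesis, breakdown, binding and receptors, 0 passed in either direction, against 0.0171% of all tested genes. Their median log2 fold change was -0.05. Crabp1, a cellular retinoic acid-binding protein, had the smallest p. It stood at 5.91 ± 2.62 CPM (SD, n = 4) in sham and 3.60 ± 0.980 CPM (SD, n = 5) in MI, with a log2 fold change of -0.71 (SE 0.31, edgeR likelihood-ratio adjusted p = 0.968). Of the other axial regulators Gdf11, a signal that sets the trunk-to-tail boundary, had -0.08 (SE 0.09) and the replication regulator Gmnn -0.02 (SE 0.17), neither passing the test, while Cdx2, a direct activator of trunk Hox genes in the embryo, had no read and its relative Cdx4 had 2.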

How the data were processed

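Per the series' design text, the 75 bp reads passed through bcl2fastq 2.16.0.10 and cutadapt, STAR 2.3.0 aligned them to rn6, and genes were those of Partek 6.6. The deposited gene counts are whole numbers, rounded by the authors from the deposited estimated counts. The deposited RPKM values were scaled by the authors for gene length and library size. The authors' deposited table gives linear fold changes and p-values. The RNA integrity score in the deposited sample sheet lay between 8.0 and 8.5. Whether counting used strand is not stated, so overlapping genes cannot be separated. Rows were matched by symbol; RefSeq (GRCr8) served for names and neighbours only.

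Counts were fitted in R 4.3.3 with edgeR 4.0.16 (TMM scaling, filterByExpr, tagwise dispersions, likelihood-ratio test, Benjamini-Hochberg adjustment over 11711 genes); 15 of 27 Hox rows passed the filter. SEs are those of the fitted coefficient. The scripts were tested on simulated data. Other fits tried: DESeq2 1.42.0, the quasi-likelihood test, limma 3.58.1 (voom, and log2 RPKM with pseudocounts 0.1 and 1), other scalings, filters and dispersions, a replicate block and fits without each library. Levels between genes are compared in RPKM, between groups in TMM-scaled CPM. Of the 27 Hox rows, 1 is not reported here and the others are named; rows of at least 1 RPKM and the smallest p in each direction are given in full, and of partner lists those called or the smallest p. Members and lists were chosen with earlier results of these data known.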

Additional observations from a re-analysis of the deposited data

Results flagged for a closer look

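Each of the 15 tested Hox rows was examined for a library lying far from the rest of its group, in 30 groups where chance alone would give 1.5. There was 1: Hoxd3 stood at 6.89 CPM in MI 5 against 3.16 to 4.08 CPM in the other MI rats. The 47 reads behind it compare with 19 to 26 in the other MI libraries.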

How the results depend on the processing

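The count of called Hox rows was 0 under all 21 alternatives, the fits without 1 library included (0 to 0), and the smallest adjusted p of any Hox row over them was 0.696, for Hoxc4 with 1 common dispersion. Of 315 log2 fold changes under alternatives, 294 kept their direction. With the replicate number as a block, 0 Hox rows were called and Hoxa2 had -0.0079, Hoxb7 -0.0122 and Hoxd1 -0.0551. The sample titles state no pairing by number. Deviations from the group mean had correlations of -0.13 to 0.09 between same-numbered rats, which cannot decide whether these were handled together. Hoxa6 had 0.0778 by voom, 0.0679 on log2(RPKM + 0.1) and 0.0008 on log2(RPKM + 1). Leaving out 1 library, values ranged from -0.0103 to 0.20 for Hoxa2, -0.30 to 0.24 for Hoxa6, -0.042 to 0.23 for Hoxb3, -0.25 to 0.0235 for Hoxb5, -0.0504 to 0.16 for Hoxb7, -0.12 to 0.0026 for Hoxc5 and -0.21 to 0.055 for Hoxd4; the cause was not tested. Over all alternatives Hoxb8 ranged from 0.31 to 0.48, Hoxc4 from 0.23 to 0.43 and Hoxd9 from 0.23 to 0.46. The partner lists had 0 calls throughout except 2 (Crabp1 and Aldh1a2) with 1 common dispersion.

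The count of all called genes, 2, became 0 by the quasi-likelihood test, voom and both RPKM fits, 70 with 1 common dispersion, 6 with no filter, 11 with the block, and 2 to 8 without 1 library. Expressed Hox rows numbered 14 at 0.5 RPKM, 5 at 2 RPKM, 10 with 1 RPKM required in every library and 12 to 13 without 1 library. The median CV of the tested rows was 17.7% to 20.5% without 1 library, and 19.8% on RPKM, an alternative added after seeing the data.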
